A study of Homo sapiens with 6 samples.

Results

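This section describes 10 genes of WNT signalling in Capan1, a line of well differentiated cells from a human pancreatic cancer: the inhibitors DKK1 and DKK3, the ligands WNT7A, WNT7B and WNT10A, the feedback genes AXIN2, RNF43 and ZNRF3, and the transcription factors TCF7 and TCF7L2. They were selected on gene symbol with the difference between these same groups of arrays already known, and the large falls of DKK1 and WNT7B were among the values that led to the choice. Differences between the groups are therefore given for these genes as descriptions, with no test, and calls made over the whole array are reported for orientation only. Of the 10 genes, 9 had a probe that the annotation names, 14 probes in all. TCF7 had no probe named here. A gene was counted as measured where 3 or more of the 6 arrays detected a probe (detection p under 0.05). By that rule 7 of the 10 genes were measured, of 10781 genes over the array, and each was read by 1 probe.

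Capan1 cells were seeded on gels of type I collagen and Matrigel, with PS1 pancreatic stellate cells embedded in the gel in 3 samples and with Capan1 alone in 3. Stellate cells are the fibroblast-like cells that lay down the stroma of pancreatic tumours, and PS1 is a line of them, so the comparison concerns 1 cancer line and 1 stellate line. The gels were raised onto grids after 24 hours, fed from below and harvested on day 10, and the cancer cell layer was cut out of frozen sections by laser for RNA. Titles and source names give the groups, and the sample descriptions and the headers of the intensity columns separate the same samples. Another label names PS1 as the exposure on all 6 samples, so each direction below rests on the titles and the labels that match them.

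WNT ligands are lipid-modified secreted proteins that bind Frizzled receptors and the co-receptors LRP5 and LRP6. In the canonical branch this stops the breakdown of beta-catenin, which enters the nucleus and switches on genes together with TCF and LEF factors. Some of those genes feed back: AXIN2 rebuilds the complex that destroys beta-catenin, and RNF43 and ZNRF3 mark Frizzled receptors for removal from the cell surface. DKK1 is secreted, blocks LRP5 and LRP6, and is itself known as a target of beta-catenin in other cells. In pancreatic cancer DKK1 is often abundant, WNT7B has been described as a ligand that some tumour cells make for themselves, and loss of RNF43 makes cells dependent on WNT ligands.

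The promoter of DKK1 is shown because DKK1 had the largest fall of all measured genes. The window is that of RefSeq (GRCh38.p14, plus strand, chr10:52314031-52314330), which holds 250 bases before the gene's start and 50 after it, and the capitals mark a TCF/LEF core.

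DKK1: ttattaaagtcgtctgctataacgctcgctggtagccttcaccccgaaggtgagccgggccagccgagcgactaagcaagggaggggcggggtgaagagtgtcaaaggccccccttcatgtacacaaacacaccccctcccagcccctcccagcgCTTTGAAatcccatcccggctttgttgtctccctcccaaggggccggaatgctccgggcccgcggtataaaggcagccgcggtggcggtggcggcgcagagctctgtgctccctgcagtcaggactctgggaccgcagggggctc

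The core was searched as CTTTGAT or CTTTGAA on both strands. Other spellings of it were not searched, so a window counted without a core may hold another form. RefSeq promoter windows matched 6 of the 10 genes (DKK1, WNT7A, WNT10A, RNF43, TCF7 and TCF7L2), with 10 windows in all since RNF43, TCF7 and TCF7L2 have several starts. Of these 10 windows 1 held a core, that of DKK1, as CTTTGAA beginning 95 bases before the start. One was held by 6.86% of all 35116 windows. The DKK1 window had a GC content of 63.7% and 20 CpG pairs, against medians of 58.7% and 14 over all windows. The match describes these letters only, and no binding was measured.

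Among the secreted inhibitors, DKK1 was lower on every array with stellate cells than on any array of Capan1 alone. With stellate cells, replicates 1, 2 and 3 had log2 normalized intensities of 6.49, 8.02 and 7.0 at probe ILMN_1773337. In replicates 1, 2 and 3 of Capan1 alone it was 9.86, 10.23 and 9.87. The groups did not overlap, and replicate 2 with stellate cells was the nearest to the arrays of Capan1 alone. The group means were 7.17 ± 0.78 and 9.99 ± 0.21 (SD, n = 3 arrays each), a log2 difference of -2.82 ± 0.31 (SE), or 7.04-fold lower. The deposited signals before any normalization showed the same separation, at 138, 425 and 186 intensity units with stellate cells against 1387, 1225 and 1096 alone, where the median probe of an array lay between 94.2 and 139.4. Each sample is a bulk extract, so fewer cells making a transcript and less of it per cell cannot be told apart. Leaving out 1 array moved the difference between -3.25 and -2.48, the ends coming without replicate 2 and without replicate 1 with stellate cells. Without background correction it was -2.17.

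The other DKK1 probe, ILMN_2174189, was detected on none of the 6 arrays. Its log2 intensity lay between 4.47 and 5.15 over all arrays, while the lowest detected level on an array was 5.15 to 5.46. The fall of DKK1 thus rests on 1 probe. DKK3, a divergent relative of DKK1 whose effect on WNT signalling is less settled, was read by 4 probes, and none was detected on any array. Their log2 intensities ran from 4.43 to 5.13, so no level or change can be given for DKK3 at this signal.

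**Figure D1:**
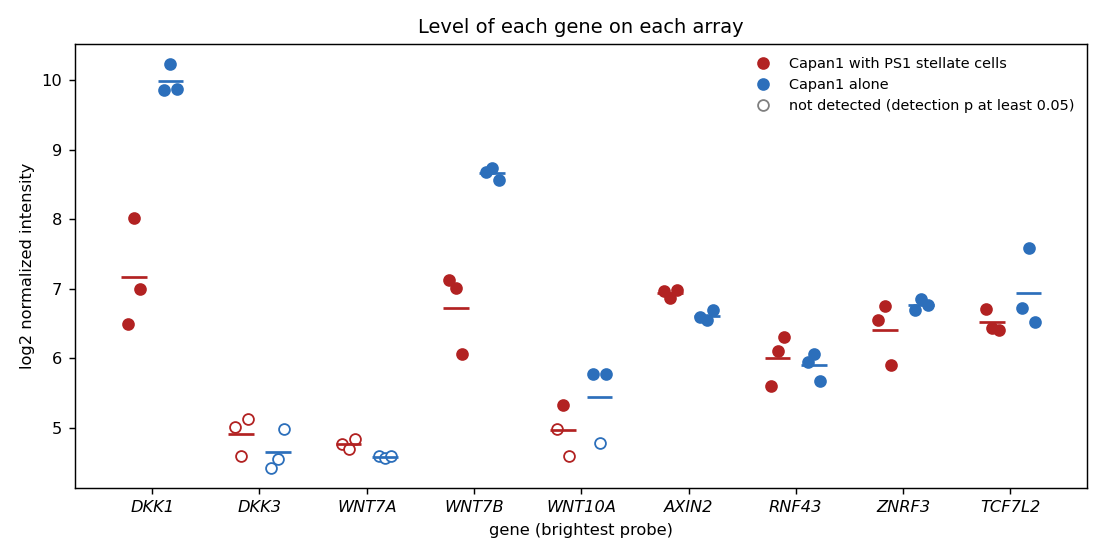
Log2 normalized intensity (y axis) of the brightest probe of each of 9 genes (x axis) on the 3 arrays with PS1 stellate cells (red) and the 3 of Capan1 alone (blue). Points are arrays, lines are group means, and open points were not detected; the groups lie wholly apart for DKK1 and WNT7B, and for AXIN2 by a smaller step, WNT7A was detected on no array so that its separate points carry no order, and probes differ in brightness, so heights should be compared only within a gene.

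Of the ligands, WNT7B was lower with stellate cells, WNT10A was at the edge of detection and WNT7A was not detected. WNT7B can signal through beta-catenin and is made by epithelia. Its probe ILMN_2153495 had log2 intensities of 7.12, 7.01 and 6.06 in replicates 1, 2 and 3 with stellate cells. On the arrays of Capan1 alone it had 8.68, 8.74 and 8.56. The groups were apart, and replicate 3 with stellate cells was the lowest. The means were 6.73 ± 0.58 and 8.66 ± 0.09 (SD, n = 3 each), a log2 difference of -1.93 ± 0.26 (SE), or 3.81-fold lower. The deposited signals were 173, 265 and 148 intensity units with stellate cells and 673, 492 and 502 alone.

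The size of this difference depended on the background correction, and on replicate 3 with stellate cells. It was -1.29 without background correction and -1.60 without that array. The other WNT7B probe, ILMN_1685314, was detected on 1 of the 6 arrays, replicate 3 alone, and was not tested. Its log2 means were 4.80 ± 0.14 with stellate cells and 5.35 ± 0.47 alone (SD, n = 3 each), and as 5 of the 6 values were not detected they carry no order and no fold is given.

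WNT10A, a ligand of skin and its appendages above all, was detected on 1 array of those with stellate cells and on 2 alone. Its log2 intensities were 4.98, 5.33 and 4.60 with stellate cells and 5.78, 4.79 and 5.77 alone, and the groups overlapped. The difference was -0.47 ± 0.32 (SE). It was not called. Leaving out replicate 2 alone moved it to -0.81, leaving out replicate 1 alone, replicate 3 alone or replicate 3 with stellate cells moved it to between -0.31 and -0.29, and it was -0.18 without background correction. WNT7A, the closest relative of WNT7B, was detected on no array, with log2 intensities of 4.70 to 4.84 with stellate cells and 4.57 to 4.59 alone. All of its values lay under the lowest detected level of their arrays, so they carry no order.

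None of the feedback genes was called in either direction. AXIN2, the most widely used readout of beta-catenin activity, had log2 intensities of 6.97, 6.87 and 6.98 with stellate cells and 6.59, 6.55 and 6.69 alone. Every array with stellate cells was above every array alone, and the arrays within a group lay close together. The means were 6.94 ± 0.06 and 6.61 ± 0.08 (SD, n = 3 each), a log2 difference of 0.33 ± 0.20 (SE) that was not called. The SE is wider than these SDs because the fit draws each probe's variance toward that of probes of like intensity. The difference was above 0 under all 17 alternative settings, from 0.12 to 0.38, with the lowest under median scaling, where the median of all genes itself moved to -0.20. The settings for filter, intensity trend, replicate block and probe rule cannot move this estimate, and each gave 0.33 again.

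RNF43 and ZNRF3, a related pair of ubiquitin ligases, showed overlapping groups. RNF43 had log2 intensities of 5.61, 6.11 and 6.31 with stellate cells and 5.95, 6.07 and 5.68 alone. Its difference of 0.11 ± 0.25 (SE) was not called and turned negative under median scaling, with array weights and without replicate 3 with stellate cells. ZNRF3 had 6.55, 6.76 and 5.90 with stellate cells against 6.69, 6.86 and 6.77 alone. The spread with stellate cells came from replicate 3, and the difference of -0.37 ± 0.25 (SE), which was not called, shrank to -0.12 without that array.

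TCF7L2, the TCF factor of intestinal and pancreatic cells best known as a diabetes risk gene, had log2 intensities of 6.71, 6.44 and 6.41 with stellate cells and 6.73, 7.58 and 6.53 alone. Replicate 2 alone stood above the other arrays, which covered a range that the groups shared. The difference of -0.43 ± 0.27 (SE) was not called and was -0.11 without replicate 2 alone. The RNA level of TCF7, a factor that is also a beta-catenin target, was not analysed here.

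In the limma fit over all probes, 2 of the 7 measured genes were called lower with stellate cells, DKK1 and WNT7B, and 0 higher, at an adjusted p under 0.05. Over all measured genes 2.11% were called lower and 2.65% higher. The groups did not overlap for the same 2 genes with lower values, against 11.5% of all measured genes, and for AXIN2 with higher values, against 14.6%. As the genes were chosen with this comparison known, nothing is read from these counts. DKK1 ranked 1 and WNT7B 9 from the lowest of the 10781 differences, while the other 5 genes lay between ranks 987 and 8826. The median difference of the 7 measured genes was -0.43, and that of all measured genes 0.02. Both calls held under all 17 alternative settings, the removal of each array among them. These settings reuse the arrays on which the genes were chosen, so this too is only a description.

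**Figure D2:**
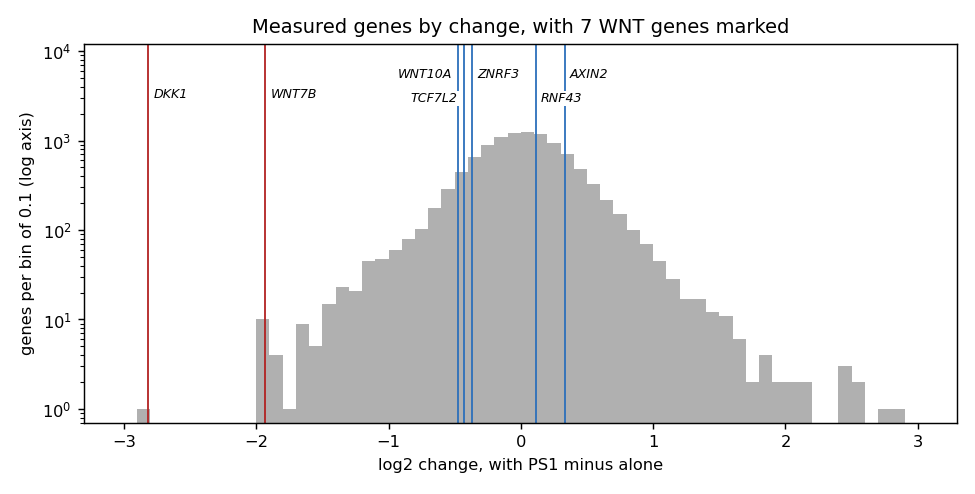
Number of measured genes (log y axis) by log2 change with PS1 stellate cells minus alone (x axis, bins of 0.1), with lines at 7 genes, red where called at a limma adjusted p under 0.05 and blue otherwise. DKK1 at -2.82 and WNT7B at -1.93 stand at the low end, and the other 5 lie between -0.47 and 0.33.

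The rest of the pathway was read through 106 further genes listed by role, of which 51 were measured. None of the 51 was called in either direction by the limma fit, while 7 had an unadjusted p under 0.05, as had 3331 of all 18165 probes. Their median log2 change was 0.04, with 23 values below 0, against 0.02 over all measured genes. Single values ran from -0.69 for the receptor ROR1 (adjusted p = 0.137) to 1.06 for TLE4, a co-repressor bound by TCF factors (adjusted p = 0.0820). These results depend on replicate 3 with stellate cells: without it 5 of the 51 were called, TLE4 and CELSR3 higher and KREMEN2, ROR1 and NKD2 lower. Calls rose over the whole array too, to 2744 of 18165 probes without it, so these 5 are not read as a trait of the pathway. TLE4, ROR1, NKD2, FZD4, DKK4 and CTNNB1 were chosen for naming after their values were seen.

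Of 16 other ligands 2 were measured, WNT3 and WNT8A, and neither was called. WNT3 had a change of -0.0003 ± 0.36 (SE, adjusted p = 0.999), a value whose sign turned under 6 of the 17 settings. WLS, the carrier that brings WNT proteins to the cell surface, had log2 means of 10.18 with stellate cells and 10.16 alone, and its change of 0.02 ± 0.16 (adjusted p = 0.963) was below 0 under 4 of 17 settings. No R-spondin, of the 4 ligands that protect Frizzled receptors from RNF43 and ZNRF3, was measured. Of 13 other secreted inhibitors and their co-receptors 3 were measured and 0 called. DKK4, a relative of DKK1, had a change of 0.41 ± 0.25 (adjusted p = 0.434), and KREMEN2, which works with DKK1 to take LRP6 off the cell surface, one of -0.48 ± 0.28 (adjusted p = 0.412).

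Of 19 receptors 12 were measured and 0 called, with values from -0.69 to 0.62. LRP5, a co-receptor that DKK1 blocks, had a change of 0.42 ± 0.14 (SE, adjusted p = 0.141), and FZD4 one of 0.62 ± 0.21 (adjusted p = 0.130). Of 18 genes of the cytoplasmic relay and the complex that destroys beta-catenin 11 were measured and 0 called, with a median of 0.07. CTNNB1, beta-catenin itself, had one of -0.32 ± 0.33 (adjusted p = 0.668), and its sign turned with array weights and without replicate 3 with stellate cells. CSNK1E, a casein kinase with the highest mean of that list, had a change of -0.20 ± 0.16 (adjusted p = 0.557).

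Of 13 nuclear factors 10 were measured and 0 called. TLE5, a short relative of the TLE co-repressors, had a change of 0.20 ± 0.14 (SE, adjusted p = 0.511), below 0 under median scaling, and LEF1 one of -0.28 ± 0.23 (adjusted p = 0.579). Over the 17 alternatives the adjusted p of TLE4 ran from 0.00021 to 0.288, and it was called in 4 of them.

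Of 13 other feedback and target genes 7 were measured and 0 called. MYC, a driver of growth, had a change of -0.28 ± 0.17 (SE, adjusted p = 0.416), and CCND1, a cyclin of the early cell cycle, one of -0.02 ± 0.14 (adjusted p = 0.965) whose sign turned under 4 of 17 settings. CD44, a surface receptor, was at 0.04 ± 0.14 (adjusted p = 0.915), but its probes disagreed, and the 1 with the smallest p gave -0.80. NKD2, an inhibitor of the relay, had a change of -0.63 ± 0.23 (adjusted p = 0.162). NKD1, SP5 and LGR5, known targets of the canonical branch, were not measured: NKD1 and SP5 were detected on 0 arrays and LGR5 on 1. Of 8 genes of the planar polarity branch 5 were measured and 0 called, with CELSR3 at 0.31 ± 0.24 (adjusted p = 0.540).

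**Figure D3:**
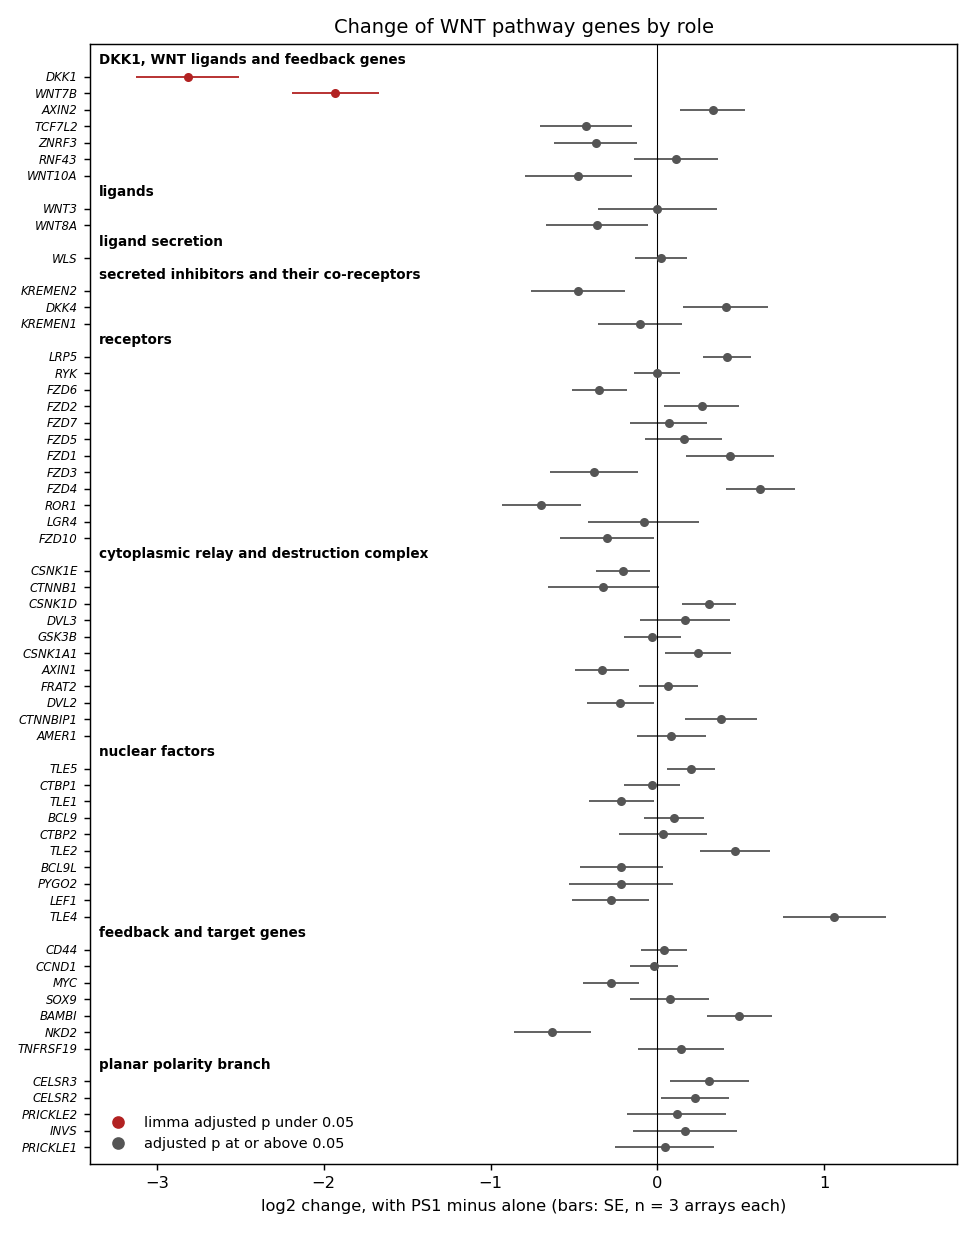
Log2 change with PS1 stellate cells minus alone (x axis) for the 7 measured genes of the set and 51 further pathway genes (y axis, by role). Points are estimates and bars are SE with 3 arrays in each group; DKK1 and WNT7B, in red, passed a limma adjusted p of 0.05, and the other 56 genes, in grey, did not.

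The genes whose levels over the 6 arrays were most like those of DKK1 were NUP93, DCP1A, MMP1, CBX6 and NTSR1, with Pearson correlations of 0.997, 0.997, 0.995, 0.990 and 0.988. The 6 points fall into the 2 groups of arrays, so a gene with a steady difference between the groups scores high whatever its size. Of these 5, MMP1, an interstitial collagenase, fell by 1.86 ± 0.25 (SE), and NTSR1, a neurotensin receptor, fell by 1.10 ± 0.24 (SE). The limma fit over all probes called MMP1 and NTSR1 lower. NUP93, CBX6 and DCP1A were not called, at -0.44, -0.41 and -0.31. As these genes were picked for following DKK1, and so the groups, their differences are descriptions and no p is given. WNT7B had a correlation of 0.908 with DKK1 and ranked 177 among the genes most like it, and AXIN2 had one of -0.968. Leaving out 1 array kept 1 to 4 of the 5 genes, so the choice of names rests on single arrays.

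Other features of the arrays moved with these differences and are given as measured. Of 14 genes of G2 and M phase, which mark dividing cells, 12 fell at a limma adjusted p under 0.05, from KIF23 at -1.65 to CCNB1 at -1.09, and 14 were called without replicate 3 with stellate cells and 5 to 7 without any 1 of the other arrays. Over all 18165 probes 364 were called lower, 1392 without that array and 65 to 164 without any 1 of the others. After each gene was set to a mean of 0 over all arrays, the list averaged -0.74, -1.10 and -0.09 with stellate cells (replicates 1 to 3) against 0.52 to 0.78 alone. Their summed deposited signal, not normalized between arrays, was 8967 to 14350 with stellate cells and 30120 to 37930 alone. The mean signal of an array itself was 273 to 449 with stellate cells and 384 to 494 alone. The part of cell division in the falls of DKK1 and WNT7B was not tested. Replicate 3 with stellate cells, where the list was nearest to Capan1 alone, had the lowest WNT7B of the 6 arrays and a DKK1 between those of the other arrays with stellate cells. Probe ILMN_3251587 for 28S ribosomal RNA was brightest on that array, where it reached 12.85 on the log2 scale and stayed between 5.97 and 8.32 elsewhere. Detected probes numbered 16325 there, and 17785 to 19602 of 47228 on each of the other arrays. Without it the differences were -2.72 for DKK1, -1.60 for WNT7B and 0.32 for AXIN2.

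The captured layer was checked against its markers. Of 10 markers of pancreatic cancer epithelium 9 had a named probe, and all 9 were detected on every array. KRT19 and EPCAM, at 0.03 and -0.11, were not called (limma adjusted p = 0.954 and 0.774), and 1 of the 9, MUC1, rose, by 1.19 ± 0.15 (SE, adjusted p = 0.0015). The median change of the 9 was 0.22, and -0.03 under median scaling. Without replicate 3 with stellate cells the median was 0.41 and 3 of the 9 were called higher, and array weights also gave 3 such calls. Over all 18165 probes 2744 were called without that array, 1352 of them higher, and 3357 with array weights, 1632 of them higher. In the main fit 366 of the 18165 were called higher. Their summed deposited signal, not normalized between arrays, was 41090 to 71530 with stellate cells and 46350 to 55590 alone. Among 16 stellate and fibroblast markers 4 were measured and 0 called, though without replicate 3 with stellate cells 2 of the 4 were called higher and 1 lower. COL1A2, LUM, FAP, THY1, PDGFRA, PDGFRB and FBN1 were detected on no array, and 3, 6 and 3 of the 16 were detected with stellate cells and 6, 2 and 4 alone. ACTA2 and COL1A1 had changes of -1.04 and 0.13 (adjusted p = 0.0526 and 0.827). TAGLN, named after its value was seen, was detected on the 3 arrays with stellate cells and on 0 of Capan1 alone. Its measured log2 means were 5.77 and 4.91, and it was not called. It passed the detection filter only through the arrays with stellate cells, so no fold and no p is given for it. The summed signal of the 16 was 2355 to 3474 with stellate cells and 2995 to 3456 alone. Of 8 blood and endothelial markers 2 were measured, CD68 and PECAM1, and 0 called, with 2187 to 3548 against 2708 to 3776 in summed signal. The stellate and blood sums take in every probe, detected or not, and are not normalized between arrays. The median signal of an array itself was 94.2 to 134.3 with stellate cells and 123.8 to 139.4 alone, so no comparison of levels is read from these sums. CD3E, VWF and CDH5 were detected on no array. The housekeeping genes ACTB and GAPDH were not called, at -0.08 and 0.11 (adjusted p = 0.835 and 0.747). The part of other cell types in the differences was not tested.

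**Figure D4:**
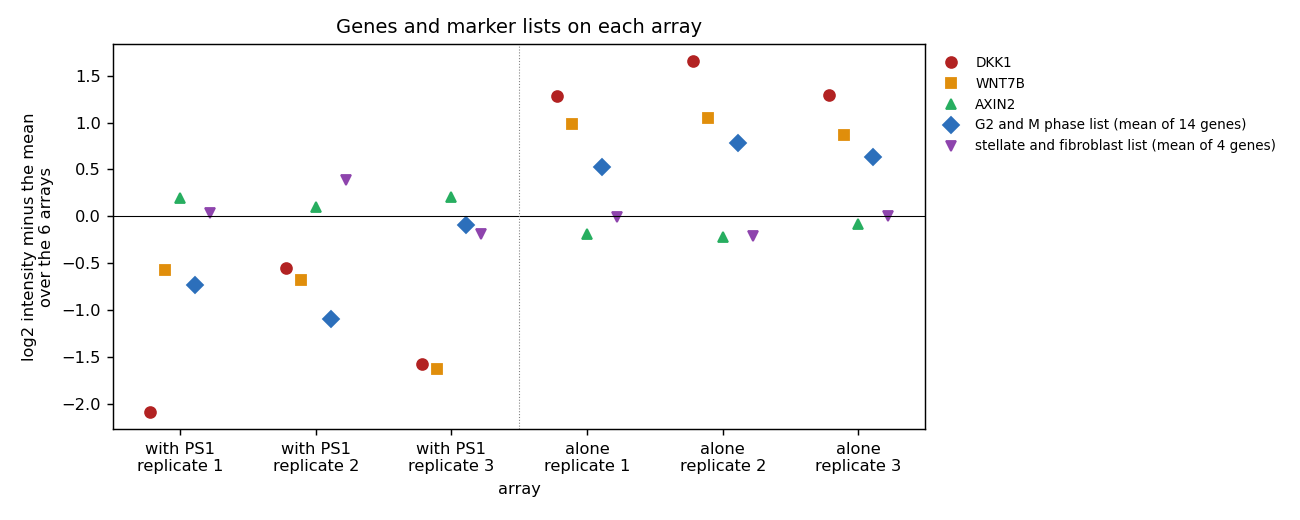
Log2 intensity minus its mean over the 6 arrays (y axis) for DKK1, WNT7B, AXIN2 and the means of 14 G2 and M phase genes and of 4 stellate and fibroblast genes, on each array (x axis). DKK1, WNT7B and the G2 and M phase genes are below 0 on the 3 arrays with stellate cells and above 0 on the 3 alone, and AXIN2 the reverse, with the G2 and M phase mean at -0.09 in replicate 3 with stellate cells.

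**Figure D5:**
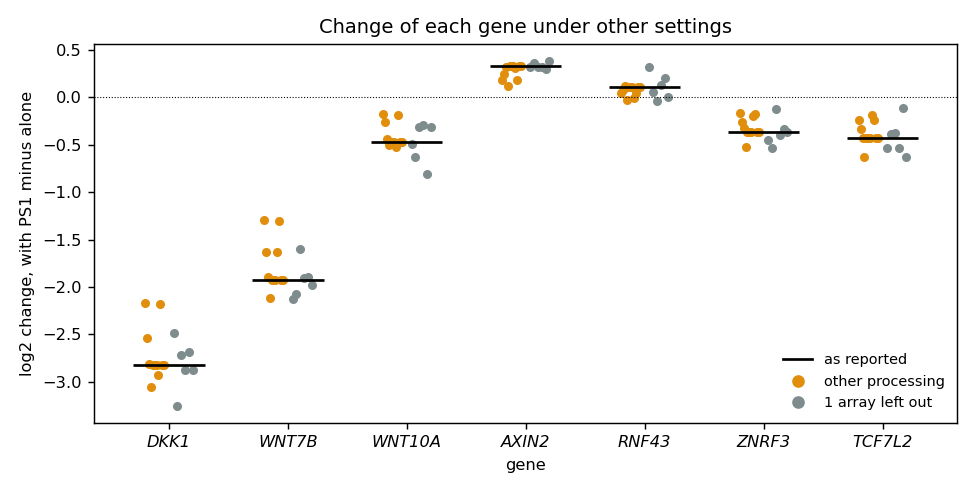
Log2 change with PS1 stellate cells minus alone (y axis) of the 7 measured genes (x axis) as reported (black line), under other processing (orange) and with 1 array left out (grey). DKK1 stays between -3.25 and -2.17 and WNT7B between -2.13 and -1.29, and RNF43 is the 1 gene of the 7 with values on both sides of 0.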

How the data were processed

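The deposited table holds 1 intensity, not normalized between arrays, and 1 detection p-value per probe on 6 Illumina arrays, per the file headers. The submitters' processing notes name BeadStudio and GenomeStudio 2011.1. The authors' value table holds intensity with 1 shared distribution and served as an alternative.

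Signals were corrected by limma's normexp, with controls estimated from the detection p-values and 16 added as offset, then quantile normalized and logged (log2). Of 47228 probes, 18165 passed the detection filter and entered lmFit and eBayes (limma 3.58.1, R 4.3.3) with an intensity trend, and two-sided p-values were adjusted over all of them by Benjamini-Hochberg. Of these 366 were called higher and 364 lower, with 3331 at an unadjusted p under 0.05. A gene was read by its tested probe of highest mean. An exact permutation test of 3 against 3 cannot go below 0.1 and was not used. The fit was also run on simulated data with independent noise in each probe and no effect shared by an array. That run cannot show how far a single array sways the calls. Symbols came from the platform's annotation updated to RefSeq, with 30112 probes of 1 gene, 8 of several and 17108 of none. No fold is given for a probe detected on no array of a group.

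The genes described and all lists were chosen with earlier results of these data known. Named genes are the 10 of the set, 6 fixed targets (NKD1, SP5, LGR5, LEF1, MYC and CCND1), the called and the highest-mean gene of each pathway role, the called and the 2 highest-mean genes of each marker list (the ends of the range for G2 and M phase), and the 5 genes most like DKK1. No label says that replicates were separate cultures: p-values then set the group difference only against the spread among these samples, and that spread may be technical. Deviations of same-numbered samples from their group means had correlations of only -0.02, -0.03 and 0.08, and the samples were treated as unpaired. A planned comparison of protein sequences was not run. Alternatives changed background, offset, normalization, filter, variance model, array weights, probe rule, value table, replicate block, or left out 1 array with the tested probes kept.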

Additional observations from a re-analysis of the deposited data

How the results depend on the processing

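DKK1 and WNT7B were called lower under all 17 alternatives and no other of the 7 genes was called under any. As the genes were chosen with their falls on these same arrays known, the repeated calls are a description and no independent support. Of the 118 values of single genes under these alternatives, 110 moved by less than the spread between replicates, 8 moved by more, and 0 called values turned sign. The filter settings, the fit without intensity trend, the replicate block and the probe rule cannot move a gene's estimate here. Their values count among the 110 by construction. Over all probes 730 were called, but 392 without the intensity trend, 3357 with array weights, 2744 without replicate 3 with stellate cells and 153 to 301 without any 1 of the other 5 arrays. Median scaling called 83 higher and 437 lower, 15.96% higher against 50.1%, with the median of all genes at -0.20. Of the 51 other pathway genes 0 were called, but 1 with cyclic loess, 9 with array weights, 1 with the replicate block, and 0 to 5 without 1 array. The replicate block called 783 probes, and not every sample correlated best with its own number. Of the 5 genes most like DKK1, 1 stayed among the first 5 under median scaling and 1 to 4 without 1 array. The cause of these changes was not tested. Low signal limits the set: probes of DKK3 and WNT7A were never detected, and without background correction the fall of DKK1 was -2.17 and that of WNT7B -1.29 on the log2 scale.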
